A study of Homo sapiens with 16 samples.

Results

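The 9 genes described here encode the enzymes that make serine and carry its carbon into the folate pool: PHGDH, PSAT1 and PSPH for serine synthesis, SHMT1 and MTHFD1 for the cytosolic folate cycle, and SHMT2, MTHFD2, MTHFD1L and ALDH1L2 for the mitochondrial one. They were taken by symbol from a table of 58051 Ensembl gene identifiers, each symbol matched 1 identifier, and all 9 passed the filter on low values. The members were chosen by their role in the pathway with earlier results of these data known, in which the measured responses of ALDH1L2 and PSAT1 to the inhibitor at medium MYC stood out. For that response, and for its difference between MYC levels, the members' values are therefore a description and carry no p-value. The libraries came from P493-6, an established human B cell line in which MYC is expressed from a transgene that doxycycline represses, and in which oestrogen switches on the viral factor EBNA2. All 16 libraries came from this single line. In high MYC cells its transgene stands in for the cell's own control of MYC. In medium MYC cells the transgene is under doxycycline, and these counts do not separate MYC mRNA of the transgene from that of the cell's own gene. High MYC cells grew in DMEM with serum alone, and medium MYC cells additionally received 0.1 µg/mL doxycycline and 1 µM beta-estradiol for 24 h. Either 100 nM IMP1088, which inhibits the N-myristoyltransferases NMT1 and NMT2, or DMSO was then given, and the sample titles give 24 h. Each of the 4 groups (high MYC with DMSO, high MYC with IMP1088, medium MYC with DMSO, medium MYC with IMP1088) had 4 libraries. Medium MYC cells differ from high MYC cells by doxycycline and estradiol as well as by MYC, and these cannot be told apart.

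Serine is made from the glycolytic intermediate 3-phosphoglycerate by PHGDH, PSAT1 and PSPH acting in that order. The serine hydroxymethyltransferases, SHMT1 in the cytosol and SHMT2 in mitochondria, then split serine into glycine and a carbon unit that is held on tetrahydrofolate. In mitochondria MTHFD2 and MTHFD1L oxidise this unit and release it as formate, while ALDH1L2 burns it to carbon dioxide and makes NADPH. The cytosolic enzyme MTHFD1 takes the formate back onto folate for the synthesis of purines and thymidylate. Proliferating lymphocytes rely on this route, MYC is known to promote it, and the stress-activated factor ATF4 is known to induce several of its genes.

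Library depth lay between 8755296 and 13858534 reads. Values are normalized counts, that is reads of a gene divided by a size factor of the library, with factors from 0.8583 to 1.3277. The members rested on 21 to 4347 reads in a library, and their coefficient of variation within a group ran from 1.30% to 23.2%, above 10% in 4 of 36 cases. The 6 B cell markers lay between 365.6 and 23087 in every library, whereas none of 14 markers of T, myeloid, epithelial and erythroid cells exceeded 230.2. The labels do not say that replicates were separate cultures, so p-values measure the spread between these libraries, which may be technical. The MYC mRNA had normalized counts from 29693 to 34376 in high MYC controls and from 904.1 to 1022 in medium MYC controls, and the inhibitor raised it by 0.59 and 0.53 on the log2 scale (limma adjusted p = 7.24e-10 and 2.74e-09).

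At medium MYC 6 of the 9 genes rose with the inhibitor, namely the 3 of serine synthesis and 3 of the 4 mitochondrial enzymes, and both cytosolic folate enzymes fell. These are 8 members called at a limma adjusted p under 0.05, where 26.3% of the 13765 tested genes were called, 11.7% higher and 14.6% lower. ALDH1L2 rose 9.06-fold and PSAT1 3.52-fold, and PHGDH, MTHFD2, SHMT2 and PSPH rose between 1.25-fold and 1.48-fold. At high MYC the same drug raised none of the 9, and PHGDH, PSAT1 and MTHFD1 fell by small amounts, 3 members called beside 26.8% of tested genes, 10.5% higher and 16.3% lower. MTHFD1L passed the test at neither MYC level. Folds and log2 changes, with their standard errors (SE), are on the scale of log2 of the normalized count plus 1, which understates changes of low genes. In these bulk libraries fewer cells that express a gene and less of its RNA per cell cannot be told apart.

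**Figure D1:**
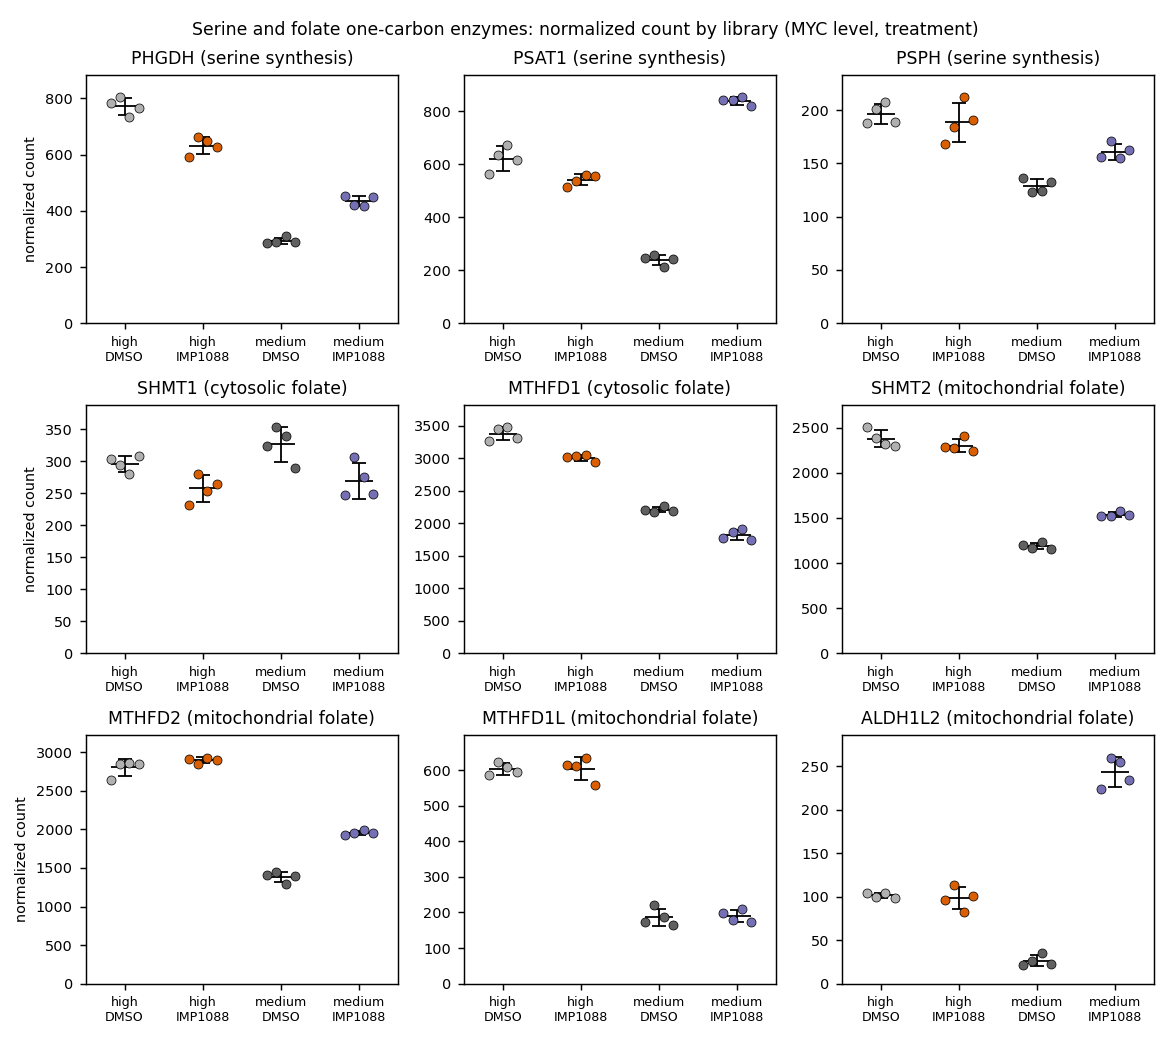
Normalized count of each of the 9 enzymes (vertical axes, from 0) in the 4 libraries of each group, with points for libraries, a dash for the mean and bars for the SD. In medium MYC cells the IMP1088 libraries sit above the DMSO libraries for PHGDH, PSAT1, PSPH, SHMT2, MTHFD2 and ALDH1L2 and below them for MTHFD1.

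RefSeq promoter windows (GRCh38.p14, 250 bases before a start site to 50 after it) were found for 6 members: PHGDH, PSAT1, SHMT1, MTHFD1, MTHFD2 and MTHFD1L, the last with 4 start sites. They were searched on both strands for the E-box CACGTG, the letters known as a binding site of MYC with its partner MAX. The other searches were for TGATGNAA, the core of the C/EBP-ATF element bound by ATF4, and for CCAAT. The stretches shown hold some of the matches, 1 stretch for each of 5 genes that differed in response: the raised PSAT1, PHGDH and MTHFD2, MTHFD1L with no call and the lowered MTHFD1. All are on the plus strand, and capitals mark the matched letters. The PSAT1 stretch lies outside the exons of all genes in GENCODE release 29, and the others lie within exons of some gene. The MTHFD2 stretch ends before the annotated start of MTHFD2, so that exon belongs to another gene.
PSAT1, chr9:78297000-78297089: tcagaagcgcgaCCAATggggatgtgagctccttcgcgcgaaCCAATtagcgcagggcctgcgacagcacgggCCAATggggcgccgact
PHGDH, chr1:119711850-119711879: tgagtatttccgtCCAATcaaaaggagact
MTHFD2, chr2:74198528-74198557: catgcggcagggaCCAATgggtggcggagg
MTHFD1L, chr6:150866343-150866372: ccggccgccggctcTGATGCAAtcgcgccg
MTHFD1, chr14:64388326-64388355: ccagtccctaagCACGTGggttgggttgtc
PSAT1 carries 3 CCAAT boxes, 113, 83 and 52 bases before its start site. CCAAT was present in all 6 members, in 8 of 9 windows, but also in 34.6% of all RefSeq windows of this length. The C/EBP-ATF letters were found only for MTHFD1L, in 3 of its 4 windows, and occur in 3.62% of all windows. CACGTG was found for MTHFD1L and MTHFD1 and occurs in 7.26%. A match or its absence describes these letters in these windows and nothing further.

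PHGDH, the first and committed enzyme of serine synthesis, had normalized counts of 784.8, 804.1, 731.7 and 764.5 in high MYC controls and 592.5, 662.2, 647.5 and 625.8 with IMP1088. In medium MYC cells it was 285.8, 287.7, 310.7 and 288.9 without the inhibitor and 450.9, 422.2, 416.7 and 447.7 with it. No group overlapped another, and the order of means from 771.3 ± 30.9 to 293.2 ± 11.7 (SD, n = 4) was high control, high inhibitor, medium inhibitor, medium control. PHGDH therefore moved in opposite directions: it fell at high MYC by 0.29 on the log2 scale (SE 0.05, limma adjusted p = 1.21e-04) and rose at medium MYC by 0.57 (SE 0.05). It was the only member called in opposite directions besides PSAT1.

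PSAT1, the aminotransferase of the second step, had normalized counts of 563.4, 633.4, 674.3 and 615.8 in high MYC controls and 515.1, 536.8, 558.5 and 556.1 with IMP1088. At medium MYC the counts were 245.1, 256.0, 210.9 and 242.1 in controls and 843.5, 842.4, 853.3 and 819.8 with the inhibitor. The treated medium MYC libraries were the highest of all 16, above every high MYC control. The log2 change was 1.82 (SE 0.06) at medium MYC, larger than that of 99.7% of tested genes. At high MYC it was -0.20 (SE 0.06, limma adjusted p = 0.0157), and this call was lost without high MYC control replicate 3 (-0.16, adjusted p = 0.0606) or high MYC inhibitor replicate 1 (-0.17, adjusted p = 0.0554).

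PSPH, the phosphatase that releases free serine, moved least in this branch. Its normalized count ran from 187.5 to 207.5 in high MYC controls, from 167.8 to 212.1 in treated high MYC cells, from 123.3 to 136.6 in medium MYC controls and from 154.6 to 170.9 in treated medium MYC cells. The groups overlapped at high MYC (log2 change -0.06, SE 0.08, limma adjusted p = 0.616) and not at medium MYC (0.32, SE 0.08). The difference between these responses was 0.38 (SE 0.11). Its call did not hold with DESeq2 (0.37) or in 8 limma fits that each left out 1 library (0.32 to 0.37), namely high MYC control replicate 2 or 3, high MYC inhibitor replicate 1 or 2, medium MYC control replicate 2 or 3, or medium MYC inhibitor replicate 2 or 4. Within the branch PSAT1 parted from PHGDH: the ratio of their normalized counts lay between 0.679 and 0.922 in the 12 libraries of the other groups and between 1.83 and 2.05 in treated medium MYC cells.

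Both cytosolic folate enzymes fell at medium MYC. MTHFD1, the trifunctional enzyme that interconverts cytosolic folates, had normalized counts of 3274, 3456, 3478 and 3317 in high MYC controls and 3014, 3038, 3051 and 2946 with IMP1088. At medium MYC they were 2201, 2180, 2272 and 2196 in controls and 1780, 1869, 1910 and 1743 with the inhibitor. All 4 groups were separate. MTHFD1 fell by 0.17 at high MYC (SE 0.03, limma adjusted p = 4.28e-04) and by 0.28 at medium MYC (SE 0.03). Its difference in response, medium minus high MYC, was -0.11 with a 95% interval from -0.20 to -0.02, and did not pass the test across all genes.

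SHMT1, the cytosolic hydroxymethyltransferase, had normalized counts from 279.2 to 307.3 in high MYC controls and from 231.2 to 280.6 with the inhibitor. It ran from 289.7 to 352.7 in medium MYC controls and from 247.0 to 307.0 with IMP1088, so that every pair of groups compared had overlapping libraries. The log2 change was -0.20 at high MYC (SE 0.08, limma adjusted p = 0.0590) and -0.28 at medium MYC (SE 0.08), where the fall was called. The high MYC value was called with the filter at a mean of 100 (adjusted p = 0.0495) and without high MYC control replicate 3 (0.0494) or high MYC inhibitor replicate 2 (0.0368).

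Among the mitochondrial enzymes, SHMT2, which feeds serine carbon into mitochondrial folate, had normalized counts of 2503, 2388, 2321 and 2301 in high MYC controls and 2282, 2277, 2411 and 2239 with IMP1088. Medium MYC controls had 1206, 1164, 1233 and 1155, and treated medium MYC cells 1520, 1518, 1581 and 1533. The high MYC groups overlapped, while the medium MYC groups were separate and both lay below every high MYC library. MTHFD2, the dehydrogenase and cyclohydrolase of the next steps, followed the same course. Its high MYC values were 2643, 2853, 2864 and 2847 in controls and 2912, 2843, 2930 and 2893 with the inhibitor, and its medium MYC values 1402, 1445, 1292 and 1398 in controls and 1921, 1954, 1989 and 1956 with it. The log2 changes at medium MYC were 0.37 (SE 0.03) for SHMT2 and 0.50 (SE 0.03) for MTHFD2. At high MYC they were -0.05 (95% interval -0.12 to 0.02) and 0.05 (-0.02 to 0.12), neither of them called.

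MTHFD1L, the formyltetrahydrofolate synthetase that releases formate in mitochondria, had no called response. Its normalized counts were 586.0, 622.2, 609.2 and 594.6 in high MYC controls and 613.0, 611.2, 635.3 and 558.2 with the inhibitor. At medium MYC they were 173.2, 220.0, 186.4 and 165.8 in controls and 199.2, 177.8, 208.9 and 173.4 with it. Treated and control libraries overlapped at both levels, and the log2 changes were 0.00 (95% interval -0.16 to 0.16) and 0.03 (-0.13 to 0.19). The medium MYC interval stays below the changes of 0.37 to 3.18 measured in the other 3 mitochondrial enzymes.

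ALDH1L2, the mitochondrial formyltetrahydrofolate dehydrogenase, had the lowest level per kilobase of the 9. It had normalized counts of 103.9, 100.0, 104.8 and 98.4 in high MYC controls and 96.8, 113.1, 82.9 and 100.8 with IMP1088, which overlap. Medium MYC controls had 21.9, 26.5, 35.0 and 22.2, and treated medium MYC cells 223.7, 260.3, 254.8 and 234.9, above every other library. The log2 change at medium MYC was 3.18 (SE 0.13), against -0.06 (SE 0.13, limma adjusted p = 0.797) at high MYC. Its exons overlap those of C12orf45 on the opposite strand, a gene with a normalized count from 358.6 to 1624, and whether reads were counted by strand is not given in the sources used here. C12orf45 changed by 0.14 (adjusted p = 0.108) with the inhibitor at medium MYC.

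**Figure D2:**
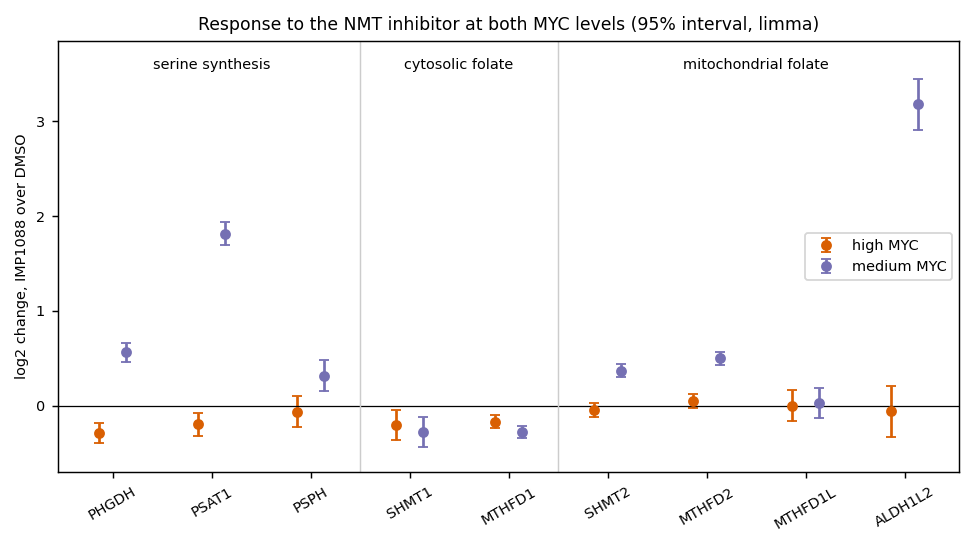
Log2 change with IMP1088 over DMSO (vertical axis) of each enzyme at high and medium MYC, with points for limma estimates and bars for 95% intervals. The medium MYC points reach 1.82 for PSAT1 and 3.18 for ALDH1L2, while the high MYC points lie between -0.29 and 0.05.

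The difference in response was called for 6 members (PHGDH, PSAT1, PSPH, SHMT2, MTHFD2 and ALDH1L2), each with the more positive change at medium MYC, beside 8.63% of tested genes, 5.33% in that direction and 3.31% in the other. Because the list was assembled with these responses known, that count and the count at medium MYC support nothing by themselves. The median log2 change of the members was -0.06 at high and 0.37 at medium MYC, beside -0.02 and -0.01 over all tested genes. Groups were without overlap for 3 members at high MYC (26.7% of tested genes) and for 7 at medium MYC (27.9%). The medium MYC median and overlap count come from the same known responses and support nothing by themselves either. The split of directions over all genes moved with scaling. Under quantile normalization the response at high MYC went from 1442 higher and 2247 lower to 1727 and 1770. The response at medium MYC went from 1606 and 2012 to 1963 and 1876. Medium against high MYC went from 5355 and 5130 to 5075 and 5526 in controls. With the inhibitor it went from 5462 and 5202 to 5101 and 5648. No called member changed direction under any alternative.

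Without the inhibitor, medium MYC cells had lower levels of 8 of the 9 enzymes than high MYC cells, and none was higher, where 76.2% of tested genes were called, 38.9% higher and 37.3% lower. Those 8 were also the members whose control libraries did not overlap (69.2% of tested genes). ALDH1L2 and MTHFD1L fell most, by 1.93 (SE 0.13) and 1.70 (SE 0.08) on the log2 scale, followed by PHGDH with 1.39 (SE 0.05) and PSAT1 with 1.38 (SE 0.06). MTHFD2, SHMT2, MTHFD1 and PSPH fell by 1.02, 1.00, 0.61 and 0.60, with limma adjusted p-values from 5.03e-17 to 4.01e-07. SHMT1 was the exception, with a log2 change of 0.14 (SE 0.08, adjusted p = 0.113), which was called only without medium MYC control replicate 4 (0.19, adjusted p = 0.0346). C12orf45, whose exons overlap those of ALDH1L2, had a change of -1.94 between the same groups, and its part in the fall of ALDH1L2 was not tested.

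With the inhibitor present 8 of 9 members were again called between MYC levels, 6 lower and 2 higher at medium MYC, where 77.5% of tested genes were called, 37.8% lower and 39.7% higher. ALDH1L2 was now higher at medium MYC by 1.30 (SE 0.13) and PSAT1 by 0.63 (SE 0.06). Both had stood out by their response in the same treated medium MYC libraries, so these 2 calls are a description and support nothing by themselves. PHGDH, SHMT2 and MTHFD2 remained lower, by changes of -0.54, -0.58 and -0.57, smaller in size than without the drug. MTHFD1L (-1.67, SE 0.08) and MTHFD1 (-0.72, SE 0.03) kept differences near those of the controls, which were -1.70 and -0.61. For PSPH the change of -0.22 (adjusted p = 0.0127) was no longer called without high MYC inhibitor replicate 3 (-0.16, limma adjusted p = 0.0640). The libraries of 7 members did not overlap, beside 72.6% of tested genes. These comparisons share their libraries with the inhibitor responses and are not separate evidence.

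**Figure D3:**
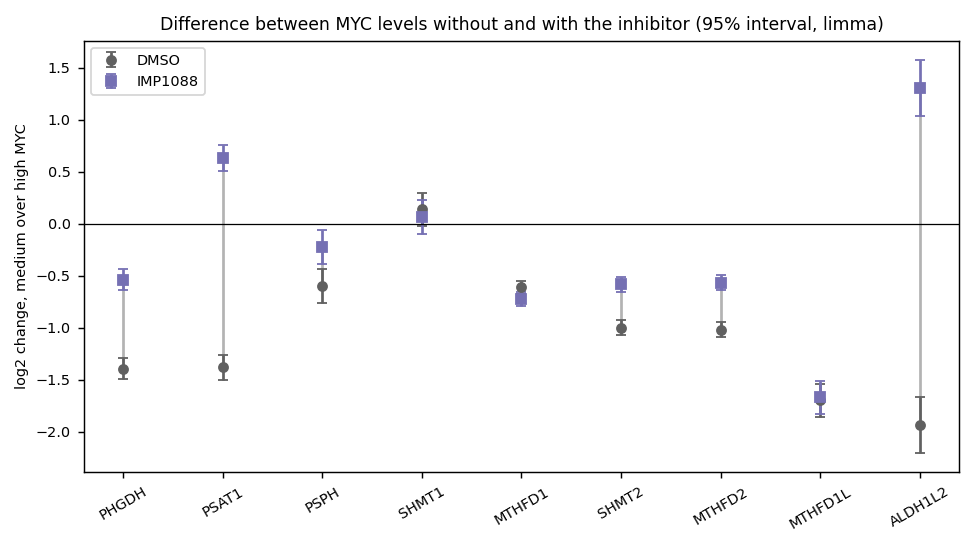
Log2 change between medium and high MYC (vertical axis) for each enzyme in DMSO (circles) and in IMP1088 (squares), with 95% intervals from limma. Squares lie at 0.63 for PSAT1 and 1.30 for ALDH1L2, whose circles lie at -1.38 and -1.93, and close to the circles for SHMT1, MTHFD1 and MTHFD1L.

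Set against untreated high MYC cells, treated medium MYC cells had 239% of the ALDH1L2 and 135% of the PSAT1 normalized count, with no overlap of libraries. The others did not reach the high MYC level: PSPH stood at 82.0%, MTHFD2 at 69.8%, SHMT2 at 64.7%, PHGDH at 56.3%, MTHFD1 at 54.0% and MTHFD1L at 31.5%, each without overlap. SHMT1 stood at 91.1% and overlapped. The share of all tested genes without overlap was not computed for this pair of groups. For medium against high MYC it was 69.2% in controls and 72.6% with the inhibitor, so a lack of overlap is usual between MYC levels.

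The balance between compartments was followed as the ratio of normalized counts within a library, which needs no gene length when groups are compared. The ratio of SHMT2 to SHMT1 was 7.49 to 8.31 in high MYC controls, 8.11 to 9.87 with IMP1088, 3.30 to 3.99 in medium MYC controls and 4.94 to 6.18 with IMP1088. Medium MYC cells thus had the lower ratio, and the inhibitor raised it there 1.57-fold without overlap. The ratio of MTHFD2 to MTHFD1 was 0.807 to 0.858 in high MYC controls, 0.936 to 0.982 with the inhibitor, 0.569 to 0.663 in medium MYC controls and 1.04 to 1.12 with the inhibitor. All 4 groups were separate, and treated medium MYC cells had the highest values, 1.71-fold above their controls. ALDH1L2 over MTHFD1 rose 11.4-fold at medium MYC, from 0.00995 to 0.0154 in controls to between 0.126 and 0.139, while the high MYC groups overlapped. MTHFD1L over MTHFD1 was 0.175 to 0.180 in high MYC controls and 0.189 to 0.208 with the inhibitor, 1.12-fold higher without overlap. At medium MYC it was 0.0755 to 0.101 in medium MYC controls and 0.0952 to 0.112 with the inhibitor, which overlap. MTHFD1, the divisor for MTHFD2, MTHFD1L and ALDH1L2, itself fell with the inhibitor. Its log2 changes were -0.17 at high MYC and -0.28 at medium MYC. At high MYC MTHFD1L changed by 0.00, so its ratio rose there with the fall of MTHFD1 alone. These ratios are descriptions without a test.

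**Figure D4:**
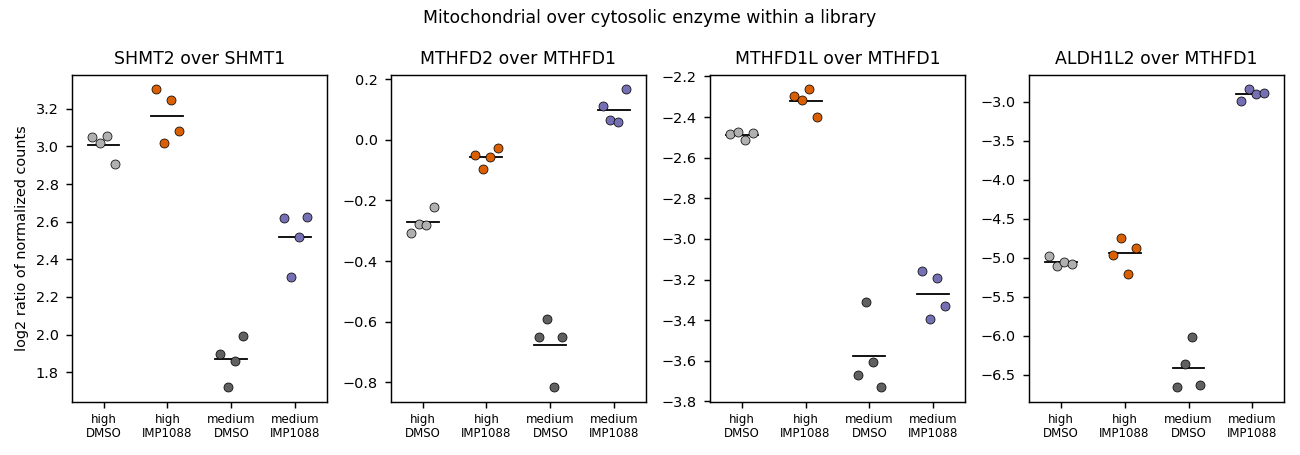
Log2 ratio of the normalized counts of a mitochondrial over a cytosolic enzyme (vertical axes, own range per panel) in each library, with lines for group means. Treated medium MYC libraries lie above their controls without overlap in every panel except that of MTHFD1L, and are the highest of all groups for MTHFD2 and ALDH1L2.

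Levels of different genes were compared per kilobase of exon, using all annotated exons (GENCODE release 29) or the longest transcript. In high MYC controls MTHFD2, SHMT2 and MTHFD1 held the top 3 places under both lengths, with 575.3, 491.6 and 360.6 normalized counts per kilobase of all exons, and PSAT1 came next with 284.2. ALDH1L2 was last in all 4 groups, at 12.0 in high MYC controls, 3.10 in medium MYC controls and 28.6 in treated medium MYC cells. The order of MTHFD2 and SHMT2 and that of the middle members depended on the length used. PSAT1 passed MTHFD1 only in treated medium MYC cells under both lengths, with 383.8 against 194.7 per kilobase of all exons.

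The wider pathway was represented by 45 other genes of folate transport, glycine cleavage, methionine and transsulfuration metabolism and serine use, of which 36 passed the filter. This list was also chosen with earlier results of these data known. Its counts and values for the medium MYC response and the difference in response are therefore a description and support nothing by themselves. With IMP1088 at high MYC 11 of the 36 were called, 4 higher and 7 lower, beside 26.8% of all tested genes. At medium MYC 17 were called, 9 higher and 8 lower, beside 26.3%. The median log2 changes were -0.03 and -0.00 beside -0.02 and -0.01 over all tested genes. Of the 36, 7 were called at both levels, and the difference in response was called for 7, 6 of them more positive at medium MYC, beside 8.63% of all tested genes. SLC1A5, which carries neutral amino acids including glutamine and serine, rose by 0.80 at medium MYC (SE 0.05). At high MYC it changed by 0.09 (limma adjusted p = 0.228). CBS, which condenses serine with homocysteine, fell by 0.38 (SE 0.10, limma adjusted p = 0.00740) at high MYC. It rose by 0.64 (SE 0.10) at medium MYC, the only gene of the list called in opposite directions. MAT2B, the regulatory subunit of methionine adenosyltransferase, rose by 0.22 at medium MYC. SLC1A4, a neutral amino acid transporter that also takes up serine, fell by 0.51 (SE 0.04, adjusted p = 4.04e-09) at high MYC, with a difference in response of 0.42.

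The folate carrier SLC19A1 and the glycine decarboxylase GLDC fell at medium MYC by 0.37 and 0.36 (SE 0.09 and 0.03). SERINC1, the mitochondrial folate carrier SLC25A32 and SPTLC1, a subunit of serine palmitoyltransferase, rose at high MYC by 0.21, 0.18 and 0.16. CTH, the transsulfuration enzyme after CBS, was too low for the naming rule and is named after its values were seen. Its normalized count was 8.21 to 13.6 in medium MYC controls and 51.3 to 75.5 with the inhibitor, and its group means at high MYC were 4.65 in controls and 5.41 with the inhibitor. CTH passed the filter on low values only through the treated medium MYC group, so its call there, which the counts above include, supports nothing by itself.

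**Figure D5:**
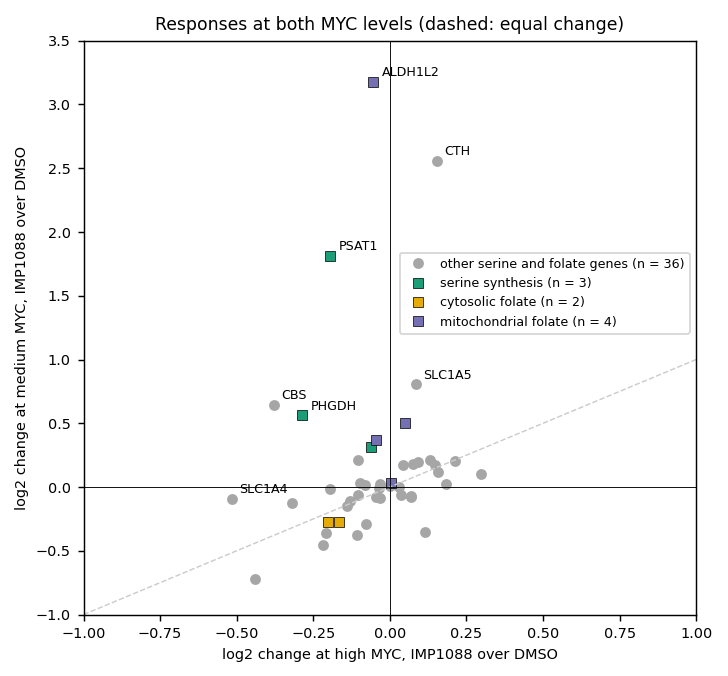
Log2 change with IMP1088 over DMSO at high MYC (horizontal axis) and at medium MYC (vertical axis) for the 9 enzymes (squares) and 36 other pathway genes (circles), with the dashed line for equal change. ALDH1L2 and PSAT1 lie far above the line at 3.18 and 1.82 on the vertical axis, as does CTH, which passed the filter only through treated medium MYC cells.

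Between MYC levels 34 of the 36 other genes were called in controls, 13 higher and 21 lower at medium MYC, where 76.2% of all tested genes were called. Their median was -0.53 beside 0.02 over all tested genes. With the inhibitor 33 were called, 12 higher and 21 lower, where 77.5% of all tested genes were called. CBS, SLC19A1 and GCSH, the carrier protein of glycine cleavage, had changes of -2.14, -2.04 and -1.97 in controls, whereas SRR, SLC1A4 and MTHFS rose by 1.70, 1.69 and 0.88, the strongest called changes each way where the mean count was 50 or more. SRR is serine racemase, and MTHFS returns a stored folate form to use. With the inhibitor the same rule gave SLC19A1, SARDH and GCSH with changes of -2.31, -2.12 and -1.97, and SLC1A4, SRR and MTHFS with 2.11, 1.49 and 1.06. MAT2A, a catalytic subunit of methionine adenosyltransferase, had the only negative difference in response that passed, -0.14.

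Across the 16 libraries PSAT1 and ALDH1L2 correlated at r = 0.963 with each other, and the gene outside the list most like each of them was HSPA5, the main chaperone of the endoplasmic reticulum, at r = 0.978 and 0.986. PDIA4 and MANF followed for PSAT1 (0.965 and 0.962), and PDIA4 and SEC61A1 for ALDH1L2 (0.970 and 0.960). Only 3 and 4 of 10894 genes exceeded r = 0.95 with them, against 617 for SHMT2 and 516 for MTHFD1. SHMT2 was most like MZB1, PYCR1 and SLC7A5 (0.994, 0.992 and 0.992), and MTHFD1 most like GPI, PALD1 and ENDOD1 (each 0.993). These correlations describe log2 levels across libraries that share the 4 conditions. PSAT1 and ALDH1L2 had both stood out by their rise in treated medium MYC libraries. Their likeness to each other and to the genes named with them, and the counts of 3 and 4 genes, are therefore no separate evidence. The mRNA of ATF4 rose by 0.34 at medium MYC (SE 0.03, limma adjusted p = 6.93e-08) and changed by -0.08 (adjusted p = 0.0794) at high MYC. ATF4 was lower in medium than in high MYC controls, with a log2 change of -0.67 (SE 0.03).

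For some members the counts could hold reads of other genes. The annotation lists 14 pseudogenes named after PSAT1, PSPH, SHMT1, MTHFD1 and MTHFD2, and none had a normalized count above 2.09 in any library, but reads could still be split among such copies. Exons of SHMT1, MTHFD1, SHMT2, MTHFD2 and ALDH1L2 overlap those of genes on the opposite strand. Besides C12orf45, the abundant ones were SMCR8 at SHMT1, which rose at medium MYC by 0.22 where SHMT1 fell, and ZBTB25 at MTHFD1, with -0.06 (limma adjusted p = 0.487). Between MYC levels in controls ZBTB25 had a change of -0.65, beside -0.61 for MTHFD1, and its part in that fall was not tested. These 5 genes are reported as uncertain to that extent. Among the other pathway genes named, exons of SLC19A1, SLC25A32, SRR, MAT2A, MTHFS and GCSH overlap those of another gene, and GCSH and GLDC have pseudogenes, with the same limit.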

How the data were processed

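RNA-seq of 16 P493-6 libraries in 4 groups of 4 was used. The authors deposited 1 table of normalized counts, a signal per gene that is never negative, named so by the file itself. STAR 2.5.2a, RSEM 1.2.31, DESeq2 1.16.1 and the build GRCh38 are named in the submitters' processing notes, with no role given; the annotation and the use of strand are not given in the sources used here. All values (100%) were whole multiples of 1 step per library within 1e-06 reads, so reads were recovered for count tests. For the difference in response edgeR called 1219 genes, DESeq2 1026 and limma 1188.

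Symbols came from a gene name table that matched 56948 identifiers, and positions from GENCODE 29 by identifier. Genes with a mean of at least 10 (13765) were tested on log2 of value plus 1 with limma (version 3.58.1, R 4.3.3), in 1 fit with 4 group means, a mean trend and Benjamini-Hochberg adjustment (called at an adjusted p under 0.05, two-sided). It recovered changes put into simulated counts that had the same spread for every gene. This does not show how reliably small changes in these libraries are found. Alternatives were other scalings, pseudocounts of 0.1 and 10, filters, no trend, compared groups only, a replicate block, edgeR 4.0.16, DESeq2 1.42.0 and leaving out each library; GC corrections were added after the data were seen.

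Members and lists were chosen with earlier results of these data known. All members were named, with up to 3 called pathway genes each way per comparison (mean of at least 50), MYC, ATF4 and the 3 genes most like PSAT1, ALDH1L2, SHMT2 and MTHFD1. Some genes that this rule names are not reported here.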

Additional observations from a re-analysis of the deposited data

Results flagged for a closer look

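The interaction term of the limma fit across all genes picked out 6 members whose change with IMP1088 differed between the 2 MYC levels. The members were chosen with these responses known, so the values are a description and support nothing by themselves. The differences, medium minus high MYC, were 3.24 (SE 0.18) for ALDH1L2, 2.01 (SE 0.08) for PSAT1, 0.85 (SE 0.07) for PHGDH, 0.45 (SE 0.05) for MTHFD2, 0.42 (SE 0.05) for SHMT2 and 0.38 (SE 0.11) for PSPH on the log2 scale. Of these, PHGDH and PSAT1 were called in opposite directions at the MYC levels.

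In 36 tests of a library standing far from the other 3 of its group, 2 values stood out: PHGDH in medium MYC control replicate 3, at a normalized count of 310.7, and MTHFD2 in high MYC control replicate 1, at 2643. Chance gives about 1 such value in 20 tests. No call for that gene changed when its library was left out.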

How the results depend on the processing

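No called member changed direction under any alternative, and every count of called members or genes stayed within 1.5 times its main value. Members called ranged from 2 to 4 for the response at high MYC and from 5 to 7 for the difference in response, 6 in the main fit. The calls that moved were those of PSAT1, SHMT1, PSPH and, for the difference in response, MTHFD1. The difference of MTHFD1 was called with the GC correction and replicate block together (-0.12).

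Same-numbered libraries did not deviate together on average (mean correlations from -0.0715 to 0.0243). The highest single value was 0.239, for number 4 of the high and medium MYC controls. The main fit used no pairing by number. With the replicate block 4, 8, 5, 8 and 8 members were called for the response at high MYC, at medium MYC, their difference, and the MYC levels in controls and with inhibitor, and 3468, 3425, 1052, 10419 and 10601 genes. The block lost the call for the difference of PSPH (0.38) and gained the fall of SHMT1 at high MYC (-0.20, adjusted p = 0.0479). Depth limits ALDH1L2 most, with 21 reads in its lowest library.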
